A study of Mus musculus with 12 samples.

Results

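The 10 genes described here belong to the Wnt pathway or mark the hepatocytes around the central vein, and they are Wnt2, Rspo3, Lgr5, Rnf43, Znrf3, Axin2, Tbx3, Glul, Rhbg and Slc1a2. They were taken from the array by symbol, and all 10 were found among its 31870 symbols. Their levels were read in mouse livers of 4 groups with 3 mice each: FSAP-deficient mice after bile duct ligation (BDL), FSAP-deficient mice after sham surgery, wild-type (WT) mice after BDL, and WT mice after sham surgery. FSAP is factor VII-activating protease, a plasma serine protease encoded by Habp2, and the series asks what its loss does to the liver when ligation of the common bile duct stops bile flow. FSAP-/- mice and their WT littermates came from heterozygous parents on a background labelled BalbC, backcrossed up to the F3 generation, so that genes of the earlier background may still segregate. The mice were 20 to 30 weeks old and livers were frozen 2 weeks after surgery. Neither the sex of the mice nor the deleted region of Habp2 is given in the labels.

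Hepatocytes are not alike along the path of blood from the portal vein to the central vein. Endothelial cells of the central vein and the nearby sinusoids secrete Wnt ligands and R-spondin, which act on Frizzled, LRP and LGR receptors of neighbouring hepatocytes and stabilise beta-catenin there. Beta-catenin with TCF factors then switches on pericentral genes such as glutamine synthetase, and also genes that dampen the pathway itself.

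Each mouse gave 1 one-colour array, and a level here is the log2 signal of a probe relative to the 75th percentile of its array, so that 0 is the signal at that percentile and a step of 1 is a doubling. Levels of different genes come from different probes and cannot be ranked against each other. Arrays of 1 group correlated at 0.971 to 0.993. All 12 hepatocyte markers, among them albumin (Alb) and Hnf4a, were well above background on every array, which fits the label liver. Habp2 was no higher than -6.95 on FSAP-deficient BDL arrays, against at least 4.97 on WT BDL arrays, and no higher than -3.45 on FSAP-deficient sham arrays, against at least 5.37 on WT sham arrays. Y-linked genes were well above background, and Xist was not, on 3 arrays, FSAP-deficient BDL replicates 1 and 2 and FSAP-deficient sham replicate 1. The arrays lay on 4 slides: slide 1 held all 3 WT sham livers and WT BDL replicate 1, slide 2 held WT BDL replicates 2 and 3 and FSAP-deficient sham replicate 2, slide 3 held all 3 FSAP-deficient BDL livers and FSAP-deficient sham replicate 3, and slide 4 held FSAP-deficient sham replicate 1.

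After ligation most of the 10 genes were lower in both genotypes. In FSAP-deficient livers 6 fell after BDL, namely Slc1a2, Glul, Lgr5, Tbx3, Rnf43 and Axin2, and Rspo3 rose. In WT livers 7 fell, the same 6 and Wnt2, and none rose. The size of the fall ran up to 17.3-fold in FSAP-deficient and 8.53-fold in WT livers, both for Slc1a2. "Rose" and "fell" stand for a limma test with Benjamini-Hochberg adjusted p under 0.05 over the 19531 genes tested. Among all genes tested, 22.8% fell and 16.2% rose in FSAP-deficient livers, and 17.7% fell and 15.1% rose in WT livers. The median log2 change of the 10 genes was -0.85 in FSAP-deficient livers, against -0.16 for all genes, and -1.38 in WT livers, against -0.03 for all genes. The 3 BDL arrays did not overlap the 3 sham arrays for 7 of the 10 genes in FSAP-deficient livers and for 8 of 10 in WT livers, where 47.5% and 52.1% of all genes did not overlap. With arrays scaled to their median, 5781 genes fell and 2695 rose in FSAP-deficient livers, and 4144 fell and 2324 rose in WT livers, in place of 4458 and 3166 in FSAP-deficient and 3457 and 2958 in WT livers. That scaling moved the median change of all genes to -0.31 in FSAP-deficient and -0.15 in WT livers, left the counts of falls among the 10 genes at 6 and 7, and took the rise of Rspo3 under the threshold. In whole liver, fewer cells of a type and less RNA per cell cannot be told apart. With slide as a block, 4 genes fell and none rose in FSAP-deficient livers and 5 fell in WT livers. These block values equal the differences within slide 3 for FSAP-deficient livers and within slide 1 for WT livers, the slides that held both surgeries of a genotype. On slide 3 the sham side was 1 array, FSAP-deficient sham replicate 3, and on slide 1 the BDL side was 1 array, WT BDL replicate 1. In block values here and below, an effect of slide and the state of that 1 mouse cannot be told apart.

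**Figure D1:**
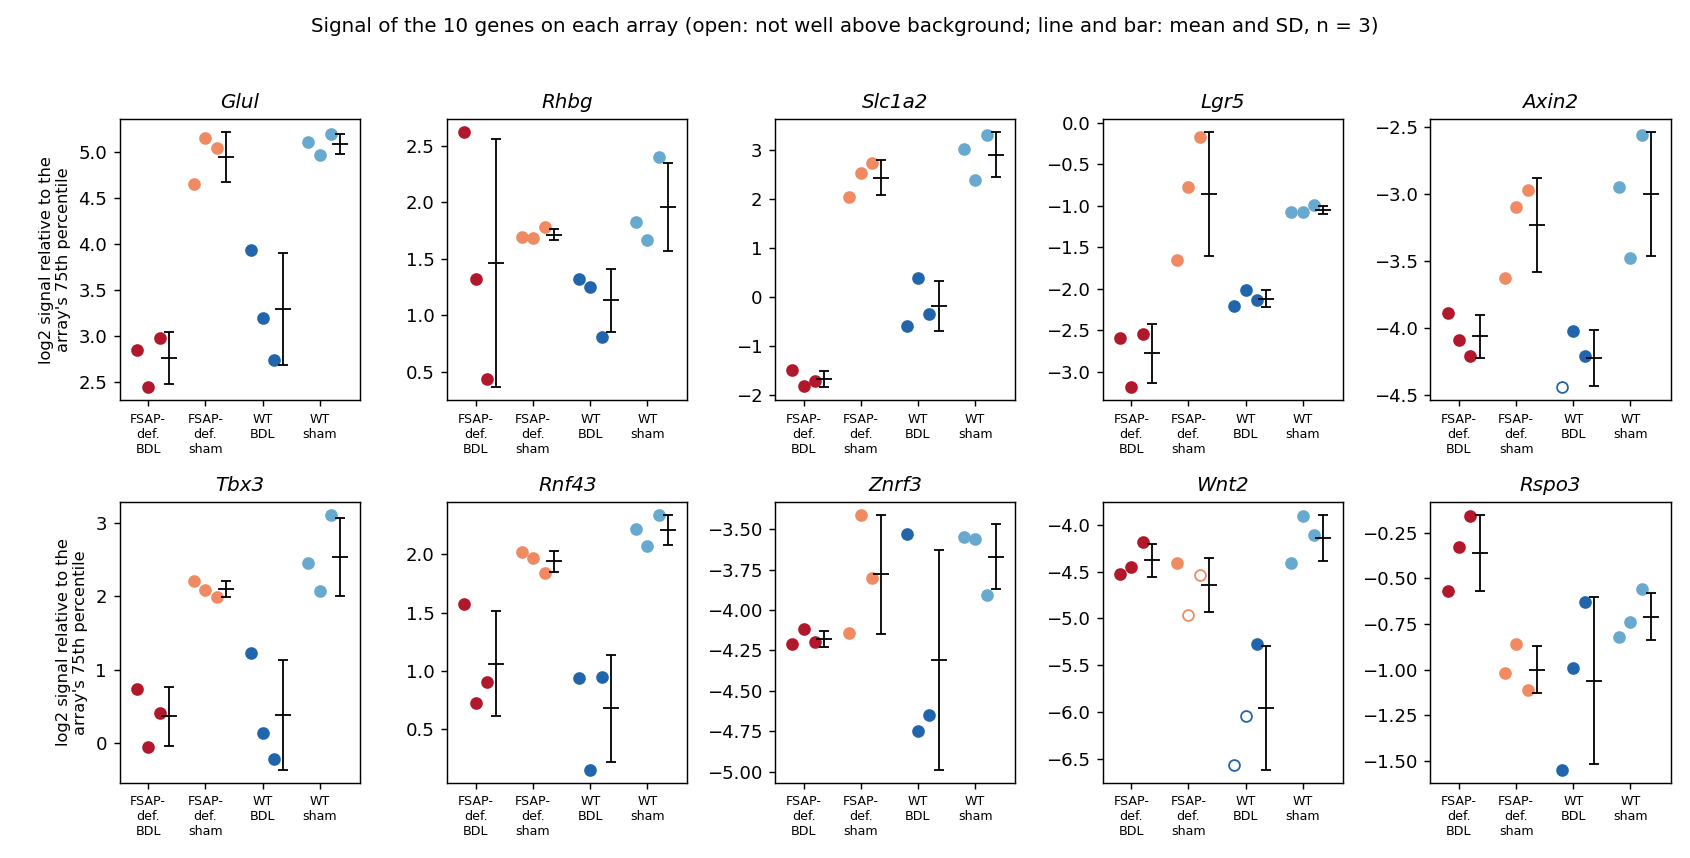
Level of each of the 10 genes on each array (vertical axis, log2 signal relative to the 75th percentile of the array, with its own range for each gene), by group along the horizontal axis. Points are replicates 1 to 3 from left to right, open points are not well above background, and the line with bar is the mean and SD (n = 3). For Slc1a2 the FSAP-deficient BDL arrays lay between -1.82 and -1.49, below the WT BDL arrays at -0.59 to 0.38, and both lay below every sham array.

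**Figure D2:**
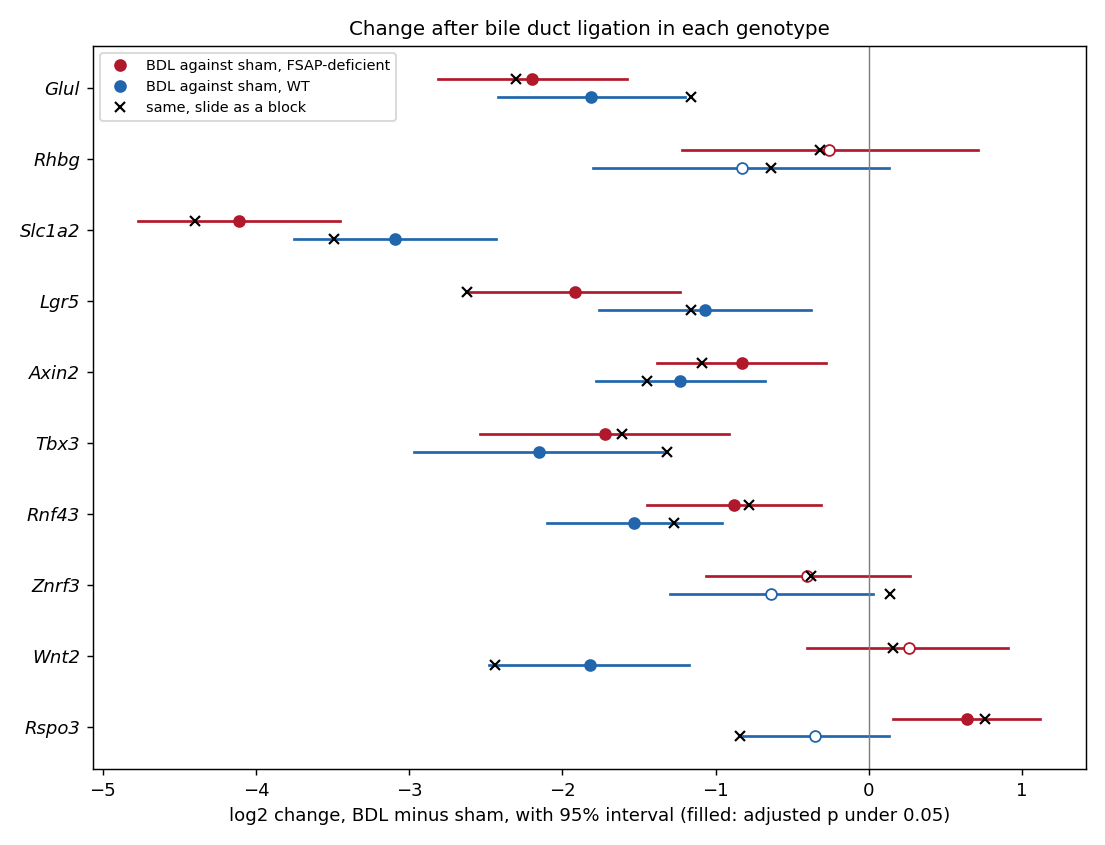
Log2 change of each gene, BDL minus sham (horizontal axis), in FSAP-deficient livers (red) and WT livers (blue), with 95% intervals of the limma model. Filled points had an adjusted p under 0.05, and crosses are the changes with slide as a block. Slc1a2 lay farthest to the left in both genotypes, at -4.11 in FSAP-deficient and -3.09 in WT livers, and Rspo3 in FSAP-deficient livers was the only filled point to the right of 0, at 0.64.

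Wnt2 is a secreted Wnt ligand made in the liver mainly by endothelial cells. Its probe lies on mm9 at chr6:17938994-17939053, minus strand, and its signal was near background: it was well above background on 3 FSAP-deficient BDL arrays, 1 FSAP-deficient sham array, 1 WT BDL array and 3 WT sham arrays. The level was -4.52, -4.45 and -4.18 in FSAP-deficient BDL livers, against -4.41, -4.96 and -4.54 in FSAP-deficient sham livers. It was -6.57, -6.04 and -5.27 in WT BDL livers, against -4.41, -3.90 and -4.11 in WT sham livers. All 3 WT BDL arrays were thus below all 9 other arrays, and the FSAP-deficient BDL and sham arrays overlapped. Wnt2 fell in WT livers by 1.82 on the log2 scale (SE 0.30, adjusted p 0.00103), and in FSAP-deficient livers the change was 0.26 (SE 0.30, adjusted p 0.528). The fall in WT livers was smaller where the treatment of dim signals differed: it was -0.62 (adjusted p 0.0145) with normexp background correction and -0.91 (adjusted p 0.00978) when signals below the dimmest probe well above background were raised to that probe's signal. Wnt9b, the other Wnt ligand known from the central vein, did not pass the test in either genotype, with a log2 change of 0.57 (SE 0.35) in FSAP-deficient and -0.04 (SE 0.35) in WT livers.

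Rspo3 encodes R-spondin 3, which central vein endothelium and stellate cells secrete and which keeps Frizzled receptors on the surface of hepatocytes. Its probe lies at chr10:29172930-29172989 (mm9, minus strand). Rspo3 stood at -0.57, -0.33 and -0.16 in FSAP-deficient BDL livers, against -1.02, -0.86 and -1.11 in FSAP-deficient sham livers. In WT BDL livers it stood at -1.55, -0.99 and -0.63, against -0.82, -0.74 and -0.56 in WT sham livers. The FSAP-deficient BDL arrays were all above the FSAP-deficient sham arrays, while WT BDL and sham arrays overlapped. Rspo3 rose in FSAP-deficient livers, by 0.64 (SE 0.22, 1.56-fold, adjusted p 0.037), and the change in WT livers was -0.35 (SE 0.22, adjusted p 0.248). The rise was past the threshold in 14 of 25 alternative fits, whose values ran from 0.49 to 0.83: adjusted p was 0.106 when arrays were scaled to their median, 0.0613 with slide as a block and 0.103 without the 3 arrays with Y-linked signal. Rspo1, another R-spondin, rose in both genotypes, by 1.41 (SE 0.25) in FSAP-deficient and 0.94 (SE 0.25) in WT livers.

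Lgr5 is a receptor for R-spondins and itself a target of the pathway, expressed in pericentral hepatocytes. Its probe lies at chr10:114887403-114887462 (mm9, minus strand). In FSAP-deficient BDL livers Lgr5 measured -2.60, -3.19 and -2.55, against -1.65, -0.77 and -0.17 in FSAP-deficient sham livers. In WT BDL livers it measured -2.21, -2.01 and -2.14, against -1.08, -1.07 and -0.99 in WT sham livers. Every BDL array was below every sham array of either genotype, and the FSAP-deficient BDL arrays were below all WT BDL arrays. Lgr5 fell 3.79-fold in FSAP-deficient livers (log2 change -1.92, SE 0.31, adjusted p 0.000867) and 2.1-fold in WT livers (log2 change -1.07, SE 0.31, adjusted p 0.0231). Among sham livers the spread was uneven, with an SD of 0.75 in FSAP-deficient and 0.05 in WT livers. The call in WT livers was lost in 5 of the 12 fits that left out 1 array, with adjusted p up to 0.0658, each of them without a WT array. Lgr4, the related receptor that hepatocytes of all zones carry, also fell, with log2 changes of -1.14 (SE 0.19) in FSAP-deficient and -0.62 (SE 0.19) in WT livers.

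Rnf43 and Znrf3 are membrane E3 ubiquitin ligases that remove Frizzled receptors and so dampen the pathway, and R-spondin with an LGR receptor inactivates them. The Rnf43 probe lies at chr11:87548958-87549017 (mm9, plus strand). Rnf43 read 1.57, 0.72 and 0.90 in FSAP-deficient BDL livers, against 2.02, 1.97 and 1.84 in FSAP-deficient sham livers. It read 0.94, 0.15 and 0.95 in WT BDL livers, against 2.22, 2.07 and 2.34 in WT sham livers. All BDL arrays lay below all sham arrays, and the BDL groups of the 2 genotypes overlapped. Rnf43 fell 1.84-fold in FSAP-deficient livers (log2 change -0.88, SE 0.26, adjusted p 0.0198) and 2.89-fold in WT livers (log2 change -1.53, SE 0.26, adjusted p 0.00125). With slide as a block both calls were lost, at -0.78 (adjusted p 0.198) in FSAP-deficient and -1.27 (adjusted p 0.0665) in WT livers, and the FSAP-deficient call held in 17 of 25 alternative fits.

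Znrf3 did not pass the test in either genotype. Its probe lies at chr11:5180918-5180977 (mm9, minus strand) and was well above background on all 12 arrays. Levels were -4.21, -4.12 and -4.20 in FSAP-deficient BDL livers, against -4.14, -3.41 and -3.80 in FSAP-deficient sham livers. They were -3.53, -4.75 and -4.65 in WT BDL livers, against -3.55, -3.56 and -3.91 in WT sham livers. WT BDL replicate 1 stood with the sham arrays and replicates 2 and 3 below them, so the groups overlapped. The log2 change was -0.40 (SE 0.30, 95% interval -1.06 to 0.27) in FSAP-deficient and -0.64 (SE 0.30, 95% interval -1.30 to 0.03) in WT livers. Without WT BDL replicate 1 it was -1.03 in WT livers (adjusted p 0.00604), and within slide 1, where that array is the only BDL array, it was 0.14.

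Axin2 is the scaffold of the complex that destroys beta-catenin and a general target of the pathway, often used to read its activity. Of its 2 probes, the brighter lies at chr11:108812034-108812093 (mm9, plus strand) and was well above background on 11 arrays, and the other on 1. Axin2 was at -3.89, -4.09 and -4.21 in FSAP-deficient BDL livers, against -3.63, -3.10 and -2.97 in FSAP-deficient sham livers. It was at -4.44, -4.02 and -4.21 in WT BDL livers, the first of them not well above background, against -2.95, -3.48 and -2.56 in WT sham livers. Again all BDL arrays were below all sham arrays and the 2 BDL groups overlapped. Axin2 fell 1.78-fold in FSAP-deficient livers (log2 change -0.83, SE 0.25, adjusted p 0.0222) and 2.34-fold in WT livers (log2 change -1.23, SE 0.25, adjusted p 0.00359). The fall in FSAP-deficient livers was -0.52 (adjusted p 0.109) over the mean of both probes and -1.09 (adjusted p 0.0535) with slide as a block. In WT livers it was -0.64 (adjusted p 0.0232) with normexp background correction.

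Tbx3 is a T-box transcription factor that beta-catenin induces in pericentral hepatocytes. Its probe lies at chr5:120134511-120134570 (mm9, plus strand). Tbx3 came to 0.74, -0.05 and 0.42 in FSAP-deficient BDL livers, against 2.21, 2.09 and 1.99 in FSAP-deficient sham livers. It came to 1.23, 0.14 and -0.21 in WT BDL livers, against 2.45, 2.07 and 3.11 in WT sham livers. BDL and sham arrays did not overlap in either genotype, and the means after BDL were 0.37 ± 0.40 in FSAP-deficient and 0.39 ± 0.75 in WT livers (SD, n = 3 each). Tbx3 fell 3.3-fold in FSAP-deficient livers (log2 change -1.72, SE 0.37, adjusted p 0.00419) and 4.45-fold in WT livers (log2 change -2.15, SE 0.37, adjusted p 0.00142). With slide as a block the change in WT livers was -1.32 (adjusted p 0.0774), and without the 3 arrays with Y-linked signal the change in FSAP-deficient livers was -1.61 (adjusted p 0.0732), a fit that leaves 1 FSAP-deficient BDL array, assumed to vary like the other groups.

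Glul encodes glutamine synthetase, which joins ammonia to glutamate in the few rows of hepatocytes next to the central vein. Its probe lies at chr1:155756765-155756824 (mm9, plus strand). Glul was at 2.85, 2.44 and 2.98 in FSAP-deficient BDL livers, against 4.65, 5.16 and 5.05 in FSAP-deficient sham livers. In WT BDL livers it was at 3.93, 3.19 and 2.74, against 5.11, 4.97 and 5.20 in WT sham livers. The sham groups overlapped each other, as did the BDL groups, and every BDL array was below every sham array. Glul fell 4.59-fold in FSAP-deficient livers (log2 change -2.20, SE 0.28, adjusted p 0.0002) and 3.5-fold in WT livers (log2 change -1.81, SE 0.28, adjusted p 0.000745). It was past the threshold in all 25 alternative fits in both genotypes, and the WT value with slide as a block was -1.16 (adjusted p 0.028).

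Slc1a2 encodes a high-affinity glutamate transporter, which brings in the substrate of glutamine synthetase. The brightest of its 3 probes lies at chr2:102617752-102617811 (mm9, plus strand). Slc1a2 was at -1.49, -1.82 and -1.73 in FSAP-deficient BDL livers, against 2.04, 2.53 and 2.72 in FSAP-deficient sham livers. In WT BDL livers it was at -0.59, 0.38 and -0.36, against 3.02, 2.39 and 3.29 in WT sham livers. The order of the group means was WT sham, FSAP-deficient sham, WT BDL and FSAP-deficient BDL, and only the sham groups overlapped. Slc1a2 fell 17.3-fold in FSAP-deficient livers (log2 change -4.11, SE 0.30, adjusted p 1.05e-05) and 8.53-fold in WT livers (log2 change -3.09, SE 0.30, adjusted p 4.8e-05). Both falls passed in all 25 alternative fits, with values from -4.40 to -3.74 in FSAP-deficient and -3.49 to -2.89 in WT livers. The other 2 probes of the gene, at chr2:102622252-102622311 and chr2:102626380-102626439, had means lower by 4.48 and 2.82 in FSAP-deficient BDL livers and by 3.51 and 3.02 in WT BDL livers than in the sham livers of the same genotype. Neither was well above background on any FSAP-deficient BDL array.

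Rhbg encodes an ammonium transporter of the Rh family, kept in liver to the pericentral cells that hold glutamine synthetase. Its probe lies at chr3:88047265-88047324 (mm9, minus strand). Rhbg was at 2.62, 1.32 and 0.43 in FSAP-deficient BDL livers, against 1.69, 1.68 and 1.78 in FSAP-deficient sham livers. In WT BDL livers it was at 1.32, 1.25 and 0.81, against 1.82, 1.66 and 2.40 in WT sham livers. The FSAP-deficient BDL arrays spread from above to below all FSAP-deficient sham arrays, while the WT BDL arrays were all below the WT sham arrays. Neither change passed the test, at -0.26 (SE 0.44, adjusted p 0.677) in FSAP-deficient and -0.83 (SE 0.44, adjusted p 0.17) in WT livers. The FSAP-deficient BDL arrays with Y-linked signal were those at 2.62 and 1.32. Without the 3 arrays that had it, Rhbg was past the threshold in both genotypes, at -1.29 (SE 0.34, adjusted p 0.0235) in FSAP-deficient and -0.83 (SE 0.23, adjusted p 0.0228) in WT livers. That fit rests on 1 FSAP-deficient BDL array, and the part of sex in these values was not tested.

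Promoter sequence was at hand for 5 of the 10 genes, and 3 are shown because they belong to genes that fell in both genotypes and stand for different roles: Slc1a2, which fell most, Glul, the standard pericentral marker, and Axin2, the general target. They are RefSeq promoters on GRCm38.p6, from 250 bases before to 50 bases after the annotated start, written 5′ to 3′ along the plus strand, which is the coding strand of all 3. Capitals mark CTTTGA or its reverse complement TCAAAG, the core of the motif bound by TCF and LEF factors. Slc1a2 lies at chr2:102706188-102706487, Glul at chr1:153899679-153899978 and Axin2 at chr11:108920099-108920398.
Slc1a2: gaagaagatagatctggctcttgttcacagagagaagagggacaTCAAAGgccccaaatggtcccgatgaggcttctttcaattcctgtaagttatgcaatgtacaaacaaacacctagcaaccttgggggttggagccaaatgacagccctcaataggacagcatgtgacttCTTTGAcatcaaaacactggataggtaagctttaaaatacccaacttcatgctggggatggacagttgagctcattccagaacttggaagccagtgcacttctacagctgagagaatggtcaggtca
Glul: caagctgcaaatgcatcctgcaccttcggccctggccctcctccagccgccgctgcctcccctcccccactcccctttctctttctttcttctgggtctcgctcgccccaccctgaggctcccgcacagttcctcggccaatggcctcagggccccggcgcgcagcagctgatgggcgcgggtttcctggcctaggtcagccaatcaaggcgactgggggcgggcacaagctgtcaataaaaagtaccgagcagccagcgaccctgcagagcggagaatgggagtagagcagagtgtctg
Axin2: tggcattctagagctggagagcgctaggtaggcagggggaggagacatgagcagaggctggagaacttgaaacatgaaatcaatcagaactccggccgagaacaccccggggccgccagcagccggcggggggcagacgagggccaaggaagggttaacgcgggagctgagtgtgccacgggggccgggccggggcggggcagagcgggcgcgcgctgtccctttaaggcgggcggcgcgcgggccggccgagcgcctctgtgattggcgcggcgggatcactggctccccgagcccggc
The Slc1a2 promoter held 2 matches, which begin 206 and 77 bases before the start, and the promoters of Glul, Axin2, Wnt2 and Rnf43 held none. On both strands together, 16% of 32851 RefSeq promoters of this length held at least 1 match and 1.73% held 2 or more. The Slc1a2 promoter was also the poorest in G and C among these 3, at 45.7%, against 64.3% for Glul and 70% for Axin2. A match is a run of letters and not a measured binding site, and these windows leave out enhancers.

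None of the 10 genes passed the test between genotypes in sham livers, in limma and at an adjusted p under 0.05, and none had an unadjusted p under 0.05. Among all genes tested, 0.0154% passed. The median log2 difference of the 10 genes, FSAP-deficient minus WT, was -0.26, against 0.04 for all genes, and 9 of the 10 differences were negative. No slide held both genotypes after sham surgery, and with slide as a block the median of the 10 genes turned to 0.07. The largest in size were those of Wnt2, at -0.50 (SE 0.30, 95% interval -1.15 to 0.15), Slc1a2, at -0.47 (95% interval -1.13 to 0.19), and Tbx3, at -0.45 (95% interval -1.26 to 0.37). Arrays of the 2 genotypes did not overlap for 3 genes, Rnf43, Wnt2 and Rspo3, each lower in FSAP-deficient sham livers, where 17.1% of all genes did not overlap. For Wnt2 the nearest arrays of the 2 genotypes both stood at -4.41 to 2 decimals, so that gap is under the rounding. Y-linked signal was found on FSAP-deficient sham replicate 1 and on no WT array. Genotype and sex thus cannot be fully told apart here, and the part of sex was not tested.

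After BDL, none of the 10 genes passed between genotypes either, while 0.215% of all genes tested did, 24 higher and 18 lower in FSAP-deficient livers (28 higher and 36 lower with arrays scaled to their median). Slc1a2, Wnt2 and Rspo3 had an unadjusted p under 0.05. Wnt2 had means of -4.38 ± 0.18 in FSAP-deficient and -5.96 ± 0.66 in WT BDL livers (SD, n = 3 each), a log2 difference of 1.58 (SE 0.30, 95% interval 0.93 to 2.23, adjusted p 0.065). Since 2 of the 3 WT BDL arrays were not well above background, its size is uncertain, and it was 0.67 (SE 0.23, adjusted p 0.231) with signals raised to the lowest one well above background. Slc1a2 was 2.8-fold lower, with means of -1.68 ± 0.17 in FSAP-deficient and -0.19 ± 0.51 in WT BDL livers, a log2 difference of -1.49 (SE 0.30, 95% interval -2.15 to -0.83, adjusted p 0.0832). Rspo3 differed by 0.70 (SE 0.22, 95% interval 0.22 to 1.18, adjusted p 0.208), at -0.36 ± 0.21 in FSAP-deficient and -1.06 ± 0.46 in WT BDL livers. For these 3 genes and for Lgr5, at -0.67 (SE 0.31, adjusted p 0.402), the FSAP-deficient and WT arrays after BDL did not overlap, as for 15.6% of all genes. The other 6 differences lay between -0.53 for Glul and 0.38 for Rnf43. Wnt2 passed without WT BDL replicate 3, at 1.93 (adjusted p 0.0153), the only one of 25 alternative fits in which it did, and it was 0.33 (adjusted p 0.483) with normexp background correction. No slide held both genotypes under the same surgery, and with slide as a block the difference was 0.85 (adjusted p 0.854) for Wnt2 and -1.87 (adjusted p 0.675) for Slc1a2. Y-linked signal was found on FSAP-deficient BDL replicates 1 and 2 and on no WT array. Genotype and sex thus cannot be fully told apart after BDL, and the part of sex was not tested.

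The interaction asks whether the change with BDL differed between genotypes, FSAP-deficient minus WT. It shares its arrays, and so their uneven Y-linked signal, with the comparisons above. None of the 10 genes passed it, in limma, and 0.0102% of all genes tested did. Slc1a2, Wnt2 and Rspo3 had an unadjusted p under 0.05. The interaction was 2.08 for Wnt2 (SE 0.42, 95% interval 1.16 to 3.00, adjusted p 0.114), 0.99 for Rspo3 (SE 0.31, 95% interval 0.31 to 1.67, adjusted p 0.198) and -1.02 for Slc1a2 (SE 0.42, 95% interval -1.95 to -0.09, adjusted p 0.327). The interaction of Wnt2 ran from 0.43 to 2.59 over the alternative fits and passed in none of 24. A p above the threshold with 3 mice per group does not show that the genotypes responded alike.

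**Figure D3:**
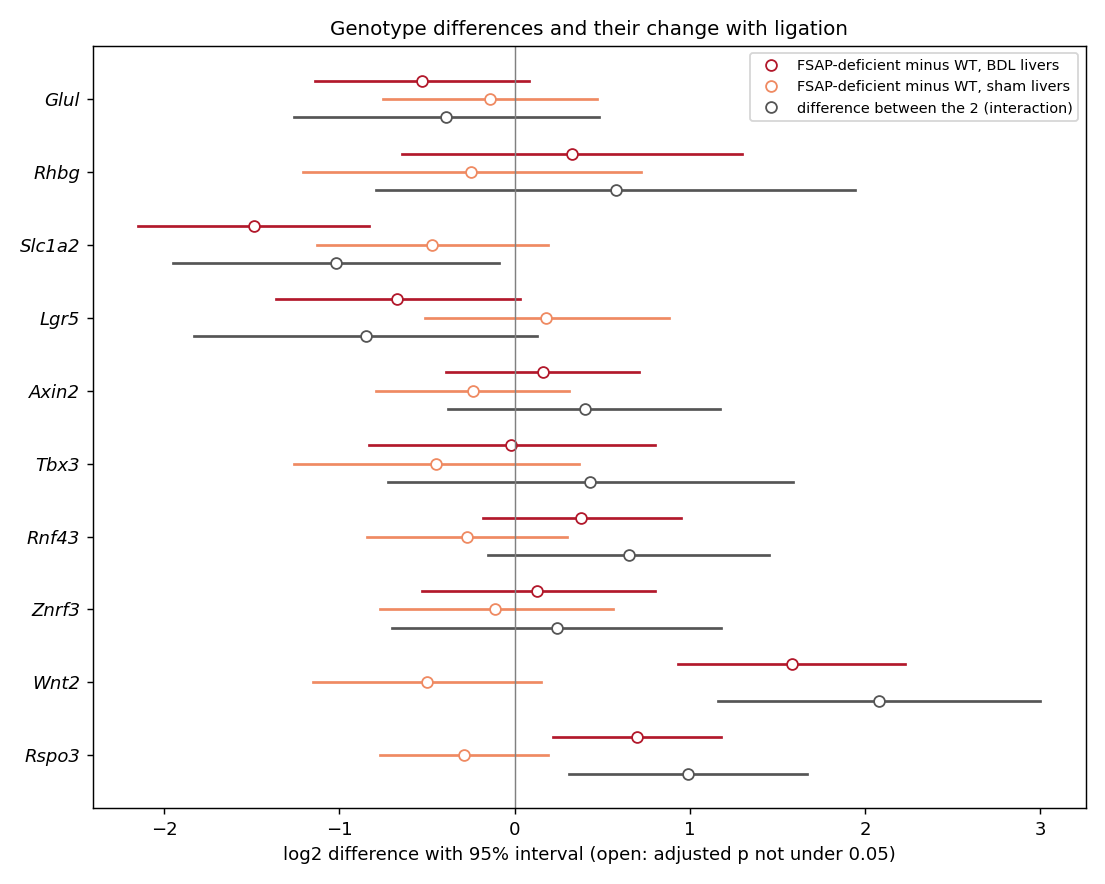
Log2 difference between genotypes, FSAP-deficient minus WT, in BDL livers (red) and sham livers (orange), and the difference between these 2, the interaction (grey), with 95% intervals of the limma model. Points are open because no adjusted p was under 0.05. Wnt2, at 1.58 in BDL livers and 2.08 for the interaction, lay farthest to the right, and Slc1a2, at -1.49 in BDL livers, farthest to the left.

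The rest of the pathway was read from lists that leave out the 10 genes. Of 20 Wnt ligands and proteins of Wnt secretion, 13 were tested, of which 4 rose and 1 fell in FSAP-deficient livers after BDL and 3 rose in WT livers. Over all genes tested, 16.2% rose and 22.8% fell in FSAP-deficient livers, and 15.1% rose and 17.7% fell in WT livers. Wnt10a rose in both genotypes: it was not well above background on any sham array and was at least 3.54-fold higher in FSAP-deficient BDL livers (adjusted p 0.000466) and at least 9.54-fold higher in WT BDL livers (adjusted p 9.78e-05). Wls, the carrier that takes Wnt proteins to the cell surface, rose by 1.92 (SE 0.34) in FSAP-deficient and 1.05 (SE 0.34) in WT livers. Wnt4 rose in FSAP-deficient livers, at least 3.07-fold, while Wnt7a was measured on 2 FSAP-deficient BDL arrays, 1 WT BDL array and no sham array. Wnt7a and Wnt10a came through the filter on dim genes by their BDL arrays alone, which fixed the direction their change could take, so counting them among the genes that rose is no evidence about the list. Wnt4 was well above background on 1 WT sham array and no FSAP-deficient sham array. It too needed its BDL arrays to come through, so the same holds for its rise. Wnt1 fell in FSAP-deficient livers, by 0.57 (SE 0.19). The slide block gave 2 that rose, Wnt10a and Wls, and 1 that fell in FSAP-deficient livers, and 1 that rose in WT livers, Wnt10a. The gene that fell was Wnt16, at -0.86 (adjusted p 0.0413), which had not passed without the block. Wnt1 did not pass with the block, at -0.39 (adjusted p 0.209). The median change of the list was 0.48 in FSAP-deficient and 0.15 in WT livers, against -0.16 in FSAP-deficient and -0.03 in WT livers for all genes.

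Of 20 other Wnt and R-spondin receptors and R-spondins, 13 were tested, and 3 rose and 6 fell in each genotype. The shares of all genes tested were 16.2% up and 22.8% down in FSAP-deficient livers, and 15.1% up and 17.7% down in WT livers. Fewer passed with slide as a block, 2 up and 3 down in FSAP-deficient livers and 2 down and none up in WT livers. The receptor genes Fzd8, Fzd7, Fzd5 and Fzd4 fell in both: Fzd8 changed by -1.89 (SE 0.31) in FSAP-deficient and -2.03 (SE 0.31) in WT livers, and Fzd7 by -1.23 (SE 0.18) in FSAP-deficient and -1.03 (SE 0.18) in WT livers. Fzd4 changed by -0.90 (SE 0.14) in FSAP-deficient and -1.20 (SE 0.14) in WT livers. Fzd2 went the other way and was at least 3.97-fold higher in FSAP-deficient and at least 2.73-fold higher in WT BDL livers, being not well above background on any sham array. Fzd3 was well above background on 2 of 3 BDL arrays and no sham array of each genotype. Both genes came through the filter on dim genes by their BDL arrays alone, which fixed the direction their change could take. Of the coreceptors, Lrp5 fell in FSAP-deficient livers, by 0.64 (SE 0.18), and Lrp6 in WT livers, by 0.73 (SE 0.21), and whether these differ between genotypes was not past the threshold of the interaction.

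Among 7 tested secreted inhibitors of the pathway, 3 rose and 1 fell in FSAP-deficient livers and 2 rose and 1 fell in WT livers. Beside these counts, 16.2% of all genes tested rose and 22.8% fell in FSAP-deficient livers, and 15.1% rose and 17.7% fell in WT livers. In the fit with slide as a block, 1 rose in each genotype and none fell. Frzb, which binds Wnt proteins outside the cell, rose by 4.26 (SE 0.66, adjusted p 0.00061) in FSAP-deficient livers, with 1 of 3 sham arrays well above background. It was at least 4.31-fold higher in WT BDL livers (adjusted p 0.00201), with no WT sham array well above background. Sfrp1, of the same family, was at least 2.37-fold higher in FSAP-deficient BDL livers, and Dkk3 rose by 1.61 (SE 0.42) in FSAP-deficient and 1.48 (SE 0.42) in WT livers. Sfrp1 came through the filter on dim genes by its BDL arrays alone, which fixed the direction its change could take. Frzb, with 1 FSAP-deficient sham array and no WT sham array well above background, also needed its BDL arrays to come through. Counting Sfrp1 and Frzb among the genes that rose is thus no evidence about the list. Notum, an esterase that takes the lipid off Wnt proteins and is itself a target of the pathway, fell by 0.80 (SE 0.25) in FSAP-deficient and 0.89 (SE 0.25) in WT livers.

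Of 20 tested intracellular components, 4 fell in each genotype and none rose, a share near that of all genes tested, of which 22.8% fell in FSAP-deficient and 17.7% in WT livers. Blocking on slide gave 2 falls in each genotype. Apc, part of the complex that destroys beta-catenin, changed by -1.56 (SE 0.20) in FSAP-deficient and -1.46 (SE 0.20) in WT livers. Apc2 changed by -0.74 (SE 0.16) in FSAP-deficient and -0.76 (SE 0.16) in WT livers. The other falls were those of Nkd2 and Ctnnbip1 in FSAP-deficient livers and of Btrc and Gsk3a in WT livers, between -1.02 and -0.64. Of 10 tested further target genes, 3 rose and 2 fell in FSAP-deficient livers and 2 rose and 3 fell in WT livers. Beside the shares of all genes that fell, given above, 16.2% rose in FSAP-deficient and 15.1% in WT livers. With slide as a block, 2 rose and 1 fell in FSAP-deficient livers and 2 rose and 2 fell in WT livers. Those that rose were Sox9 and Cd44, and Sp5 fell in both genotypes. The other fall in WT livers with the block was that of Nkd1, at -2.28 (adjusted p 0.00135). Nkd1 had not passed there without the block, at -1.22 (adjusted p 0.0605). Tnfrsf19 in WT livers (adjusted p 0.241) and Myc in FSAP-deficient livers (adjusted p 0.0708) did not pass with the block. Sp5, a direct target in many tissues, fell by 1.63 (SE 0.28) in FSAP-deficient and 2.68 (SE 0.28) in WT livers, and Tnfrsf19 fell in WT livers, by 1.71 (SE 0.45). Sox9 rose by 2.93 (SE 0.65) in FSAP-deficient and 3.97 (SE 0.65) in WT livers, Cd44 by 1.31 (SE 0.25) in FSAP-deficient and 0.89 (SE 0.25) in WT livers, and Myc by 1.65 (SE 0.52) in FSAP-deficient livers. Sox9 was well above background on 1 of 3 FSAP-deficient sham arrays. It also marks bile duct cells, and Cd44 is carried by leukocytes.

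Of 23 tested genes of other functions that mark pericentral hepatocytes, 14 fell and 1 rose in FSAP-deficient livers after BDL and 12 fell and 1 rose in WT livers, where 22.8% of all genes tested fell in FSAP-deficient and 17.7% in WT livers. Their median log2 changes were -1.17 in FSAP-deficient and -1.07 in WT livers, and 6 genes in FSAP-deficient and 7 in WT livers had a positive change. Blocking on slide gave 10 falls in FSAP-deficient and 8 in WT livers, and no rise. The largest falls were those of drug-metabolising cytochrome P450 genes. Cyp2c37 changed by -3.52 (SE 0.52) in FSAP-deficient and -5.04 (SE 0.52) in WT livers, and Cyp1a2 by -2.97 (SE 0.73) in FSAP-deficient and -3.97 (SE 0.73) in WT livers. Cyp2c50 and Cyp2c54 changed by -3.02 and -2.96 in FSAP-deficient and by -4.15 and -4.29 in WT livers, but the Cyp2c genes are near-identical and their probes may share signal. Ahr, the aryl hydrocarbon receptor, rose, by 0.62 (SE 0.20) in FSAP-deficient and 0.84 (SE 0.20) in WT livers.

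Of 24 tested genes that mark the opposite, periportal end, 17 fell and 1 rose in FSAP-deficient livers and 9 fell and 3 rose in WT livers, with medians of -0.96 in FSAP-deficient and -0.17 in WT livers. Over all genes tested, 22.8% fell and 16.2% rose in FSAP-deficient livers, with a median of -0.16. The shares in WT livers were 17.7% that fell and 15.1% that rose, with a median of -0.03. With slide as a block, 8 fell and 1 rose in FSAP-deficient livers, with a median of -1.05, and 7 fell and 2 rose in WT livers, where the median turned to 0.07. Cyp2f2 changed by -3.03 (SE 0.73) in FSAP-deficient and -4.30 (SE 0.73) in WT livers, and Pigr, the receptor that carries immunoglobulin into bile, by -1.98 (SE 0.20) in FSAP-deficient and -1.85 (SE 0.20) in WT livers. Hsd17b6 and Gls2 were among the largest falls in FSAP-deficient livers, at -2.89 (SE 0.25) and -2.03 (SE 0.17), and Otc and Hal in WT livers, at -1.93 (SE 0.15) and -1.65 (SE 0.25). Cdh1, which bile duct cells also make, rose by 1.42 (SE 0.28) in FSAP-deficient and 2.73 (SE 0.28) in WT livers, and Sdsl by 1.95 (SE 0.34) in WT livers. Arg1 passed in opposite directions, at -0.56 (SE 0.18) in FSAP-deficient and 0.61 (SE 0.18) in WT livers, and its interaction did not pass. Between genotypes after BDL, 1 gene of this list passed: Asl, a urea cycle enzyme, was 2.09-fold lower in FSAP-deficient BDL livers (log2 difference -1.06, SE 0.16, adjusted p 0.0406), with an adjusted p of 0.62 with slide as a block. Here too, Y-linked signal was on FSAP-deficient BDL replicates 1 and 2 and on no WT array. No pericentral gene of the list passed between genotypes.

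**Figure D4:**
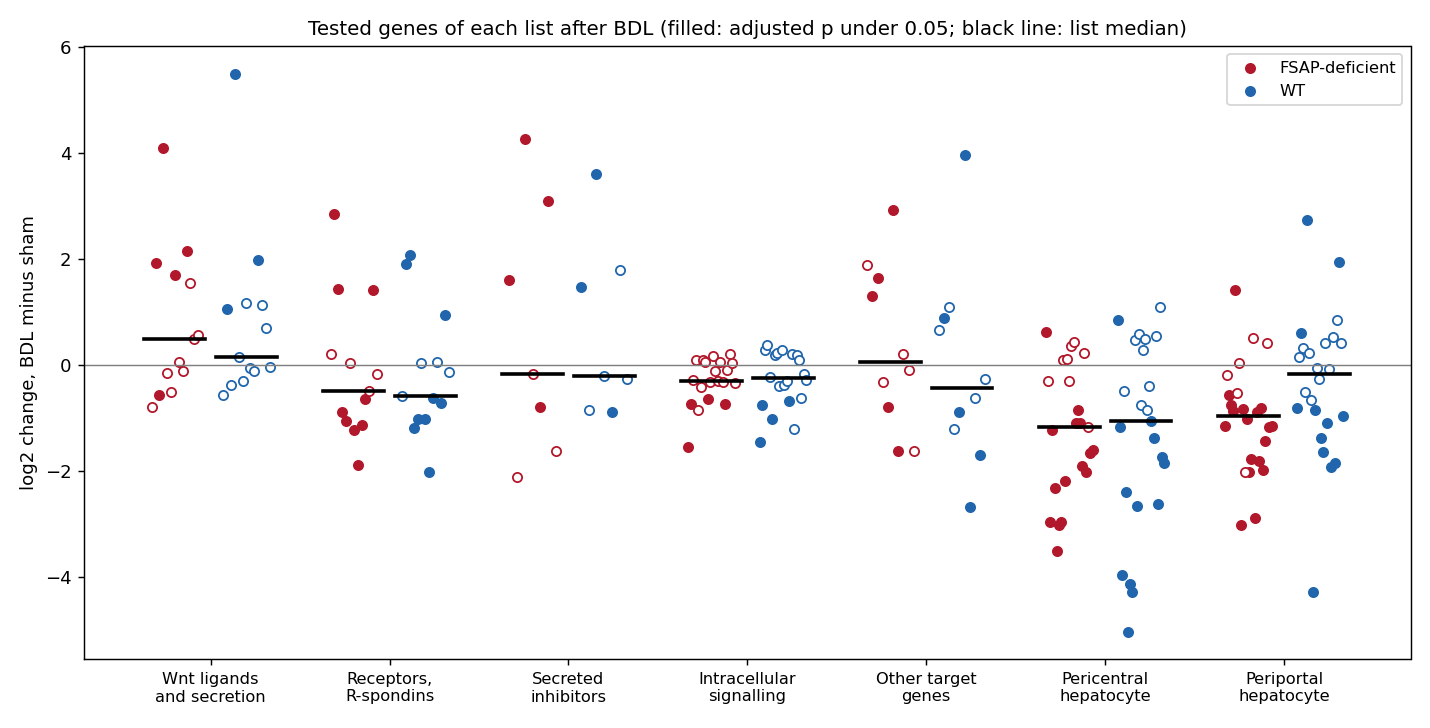
Log2 change of each tested gene, BDL minus sham (vertical axis), by list (horizontal axis) in FSAP-deficient livers (red, left in each list) and WT livers (blue, right). Filled points had an adjusted p under 0.05 and black lines are list medians. The median of the pericentral list lay at -1.17 in FSAP-deficient and -1.07 in WT livers, and that of the periportal list at -0.96 in FSAP-deficient and -0.17 in WT livers.

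Markers of other liver cells moved with the same contrast, and their part in the values above was not tested. The counts below stand beside 16.2% of all genes tested that rose and 22.8% that fell in FSAP-deficient livers. The shares in WT livers were 15.1% that rose and 17.7% that fell. Of 12 hepatocyte markers, 6 fell in FSAP-deficient livers and 2 in WT livers, and with slide as a block 3 fell in FSAP-deficient livers and 1 rose in WT livers. Their summed linear signal, in units of the 75th percentile of each array, ran from 2964 to 3855 in FSAP-deficient BDL livers, against 4368 to 4774 in the sham livers of that genotype, and from 3024 to 5584 in WT BDL livers, against 4123 to 4791 in WT sham livers. The FSAP-deficient groups did not overlap in this sum and the WT groups did. Of 16 markers of endothelium, a source of Wnt2 and Rspo3, 5 rose and 1 fell in FSAP-deficient livers and 3 rose and 2 fell in WT livers. Blocking on slide gave 3 rises and 0 falls in FSAP-deficient livers, and 2 rises and 3 falls in WT livers. Lyve1 and Thbd rose in both genotypes, Lyve1 by 2.46 (SE 0.57) in FSAP-deficient and 4.11 (SE 0.57) in WT livers. Oit3 fell in both, by 0.85 (SE 0.25) in FSAP-deficient and 0.71 (SE 0.25) in WT livers, and Gata4 fell in WT livers, by 0.86 (SE 0.28). The endothelial sum was 37.5 to 46.6 in FSAP-deficient BDL livers, against 45.7 to 52.4 in the sham livers of that genotype, and 44.8 to 47.1 in WT BDL livers, against 48.8 to 56 in WT sham livers.

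Of 12 markers of stellate cells, another source of Rspo3, and of fibroblasts, 7 rose in FSAP-deficient livers and 4 in WT livers, and with slide as a block 7 rose in FSAP-deficient livers while 1 rose and 2 fell in WT livers. For this and the next 2 lists too, 16.2% of all genes tested rose in FSAP-deficient and 15.1% in WT livers. The median change in WT livers was 0.72, and -0.01 with slide as a block. The list was led by the collagen gene Col1a1, at 5.78 (SE 0.61) in FSAP-deficient and 3.94 (SE 0.61) in WT livers. Their sum was 74.1 to 160 in FSAP-deficient BDL livers, against 34.7 to 43.6 in the sham livers of that genotype, and 26.6 to 83.2 in WT BDL livers, against 41.3 to 45.1 in WT sham livers. The brightest markers weigh most in a sum of linear signals. In sham livers that was Dcn, at means of 5.12 in FSAP-deficient and 5.22 in WT livers, which did not pass in either genotype. Of 11 tested cholangiocyte markers, 7 rose and 1 fell in FSAP-deficient livers and 6 rose and 1 fell in WT livers. Blocking on slide gave 7 rises and 1 fall in FSAP-deficient livers, and 6 rises and 2 falls in WT livers. The cholangiocyte sum, over 12 markers, was 15.7 to 48.9 in FSAP-deficient BDL livers, against 2.65 to 4.23 in the sham livers of that genotype, and 15.4 to 19.6 in WT BDL livers, against 6.12 to 6.65 in WT sham livers. Spp1 was the brightest tested marker of this list after BDL, at means of 4.30 in FSAP-deficient and 3.26 in WT livers. Epcam and Muc1 were not well above background on any sham array. Both came through the filter on dim genes by their BDL arrays alone, which fixed the direction their change could take. Krt7, well above background on 1 sham array of each genotype, also needed its BDL arrays to come through. Counting Epcam and Krt7 among the genes that rose is thus no evidence about the list. Of 11 macrophage markers, 10 rose in FSAP-deficient and 8 in WT livers, and with slide as a block 8 rose in FSAP-deficient and 5 in WT livers. Gpnmb had the largest change, at least 23.3-fold higher in FSAP-deficient and at least 16.6-fold higher in WT BDL livers. It was not well above background on any sham array and came through the filter on dim genes by its BDL arrays alone. That fixed the direction its change could take, so counting it among the genes that rose is no evidence about the list. The macrophage sum was 122 to 148 in FSAP-deficient BDL livers, against 34.4 to 53.1 in the sham livers of that genotype, and 108 to 114 in WT BDL livers, against 48.7 to 67.7 in WT sham livers. The stellate sums of the WT groups overlapped, and the BDL arrays were above the sham arrays of their genotype in the cholangiocyte and macrophage sums.

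Genes with the pattern most like 4 of the 10 were found over the 12 arrays among 15873 genes with a symbol, by the root mean square (RMS) difference of levels after each gene was centred on its mean. Nearest to Glul were Gm4949, Hacl1 and Pigr, at RMS differences of 0.22, 0.26 and 0.27, where Glul itself varied with an RMS of 1.06. Nearest to Axin2 were Gm3307, 4933411K16Rik and Tmem184a, at 0.18, 0.19 and 0.20, against an RMS of 0.59 for Axin2. Nearest to Lgr5 were Dpyd, Olfr266 and Kifc2, at 0.27, 0.29 and 0.30, against 0.86 for Lgr5. Nearest to Rspo3 were Inip, Olfm1 and Trp53i11, at 0.11, 0.11 and 0.16, against 0.35 for Rspo3. These likenesses describe the 12 arrays, which share the split by surgery.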

How the data were processed

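Liver RNA of 12 mice was measured on 12 one-colour Agilent arrays, 1 mouse per array and 3 mice per group. In the deposited scanner files every spot has a linear intensity. Feature Extraction 10.5.1.1 wrote them (protocol GE1_105_Jan09), per the file headers, subtracting background but leaving arrays unscaled against each other. The series matrix deposited by the authors holds a log2 value per probe. Its column medians lay between 5.655 and 5.6645 and each column correlated at 0.9989 or more with its array, so its genes were not centred. The sources used here do not say how it was scaled, and it served as an alternative.

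From the intensity, log2 of the processed signal minus the 75th percentile of each array was taken, spots of 1 probe were averaged without outlier-marked spots, and each symbol took its brightest probe. Symbols were updated through the RefSeq accession for 26412 of 33063 probes that have one, which changed none of the 10 genes. The 1 array without most gene names, FSAP-deficient sham replicate 1, was joined by probe identifier. It is also the only array on slide 4 and the only sham array with Y-linked signal. The filter kept 19531 genes that were well above background on 3 or more of the 12 arrays. A limma 3.58.1 model of 4 group means (R 4.3.3) gave 5 comparisons with 8 residual and 2.69 prior degrees of freedom, two-sided tests and Benjamini-Hochberg adjustment at 0.05 over all genes tested. The fit was tested on simulated data. Where a gene was well above background on no array of the dimmer group, a bound is given ("at least"), with the dimmer group's mean taken after each array's signal was raised, where lower, to the lowest signal well above background there. Positions are those of the files (mm9). Annotation of that build was not used here, so exons and untranslated regions are not given. Promoters are RefSeq's on GRCm38.p6.

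All 10 genes are described, and from each other list up to 4 genes per direction with the largest change past the threshold. The members and the lists were chosen with earlier results of these data known. Alternatives changed the background correction, scaling, filter, probe rule, source of values, arrays in the fit, slide, replicate block, and single arrays. Slide is taken from the array barcode in the name of each scan, and whether labelling followed the same grouping is not known. Per array, 98 to 193 outlier spots and 0 saturated spots were found. With arrays, the number of mice limits the precision.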

Additional observations from a re-analysis of the deposited data

Results flagged for a closer look

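Wnt2 stood above the sham mean on every FSAP-deficient BDL array and below it on every WT BDL array. Set against the mean of the sham livers of the same genotype, the 3 FSAP-deficient BDL arrays stood at 0.12, 0.19 and 0.46, and the 3 WT BDL arrays at -2.44, -1.91 and -1.13. The difference of the 2 changes, FSAP-deficient minus WT, was 2.08 on the log2 scale (SE 0.42), and its adjusted p in limma was 0.114, so it did not pass over the 19531 genes tested. Over 24 alternative fits its adjusted p ran from 0.0532 to 0.584. The probe lay near background, with 4 of 12 arrays not well above it. With signals raised to the lowest one well above background on their array, the group means were -4.38 in FSAP-deficient BDL, -4.58 in FSAP-deficient sham, -5.05 in WT BDL and -4.14 in WT sham livers, and the interaction was 1.12 (adjusted p 0.165). How far the dim signal set this value was not tested beyond these fits.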

How the results depend on the processing

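For the 14 changes of the 10 genes past the threshold, 364 values under other settings were computed: 325 kept direction and threshold, 33 kept direction but lost the threshold, 6 were within-slide values that moved by more than the spread and have no test, and 0 reversed. Of 896 values for the 36 results not past the threshold, 6 passed it, and 31 had the opposite sign to the main setting. The number of the 10 genes that rose in FSAP-deficient livers, 1 in the main setting (Rspo3), was 0 with median scaling, with no filter on dim genes, with slide as a block and without the 3 arrays with Y-linked signal, and ran from 0 to 1 when 1 array was left out. The number higher in FSAP-deficient than in WT BDL livers, 0, ran from 0 to 1 when 1 array was left out, Wnt2 passing without WT BDL replicate 3. Leaving out 1 array at a time, 4 to 6 genes fell in FSAP-deficient livers and 6 to 8 in WT livers. The setting that raises dim signals was chosen after seeing the data. The replicate block changed none of the 50 results of the 10 genes: 6 fell and 1 rose in FSAP-deficient livers and 7 fell in WT livers, as without it. For a check of pairing, the group mean of each gene was subtracted. Arrays of different groups with the same replicate number then correlated at -0.202 to 0.191 over 18 pairs, 2 of them over 0.1. Those with different numbers correlated at -0.208 to 0.216 over 36 pairs, 5 of them over 0.1. The check gave no sign that the numbers pair mice, but with 3 arrays per group it cannot exclude pairing. Over all genes, slide as a block gave 4190 calls in FSAP-deficient livers in place of 7624 and 3304 in WT livers in place of 6415. Between genotypes after BDL the count was 42, and 2 to 135 over the settings. For the interaction it was 2, and 0 to 22 over the settings that kept all arrays or left out 1. The fit without the 3 arrays with Y-linked signal, which leaves 1 FSAP-deficient BDL array, lay outside that range. The interaction was not run on the compared groups alone, since it needs all 12 arrays.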
